A study of Mus musculus with 16 samples.

Results

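Lpcat4 and the other lysophospholipid acyltransferase genes of the mouse were followed in the terminal ileum, 9 genes of the 24940 in the count table (Lpcat1, Lpcat2, Lpcat3, Lpcat4, Mboat1, Mboat2, Mboat7, Lpgat1 and Lclat1). They were picked by gene symbol. Lpcat4 was picked for its difference between the genotypes in males, and the other 8 because they belong to the same kind of enzyme. For that reason every value of Lpcat4 that rests on male libraries is given below as a description, p-values and intervals included, and no test of it is drawn from them. Its genotype test is the one among females. All 9 genes had counts in every library and all 9 passed the filter on low counts in each comparison.

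RNA was sequenced from the ileum of 16 C57BL/6 mice in 4 groups of 4, with 1 library per mouse. Every mouse carried 2 loxP-flanked Bcl6 alleles (Bcl6 fl/fl). The control males and females (WT) carried no Cre, and the Bcl6LKO males and females (LKO) also carried Alb-cre. The albumin promoter drives that Cre in hepatocytes, so the ileal cells of LKO mice were not the cells targeted, and Bcl6 mRNA was present in all groups. Its means were 15.8 ± 1.55 CPM (gene counts scaled to library size; SD, n = 4) in male WT, 18.9 ± 1.97 in male LKO, 12.1 ± 2.91 in female WT and 20.7 ± 5.03 in female LKO. The labels give neither the age nor the feeding state of these mice, and the study's general rule allowed free feeding or a 4 hour fast. The piece taken was the 1 cm of ileum next to the cecum, a mixture of cell types, so that fewer cells of a type and less RNA per cell cannot be told apart. Gene counts per library were 15.7 to 20.5 M in 15 libraries and 60.3 M in female LKO replicate 1. The comparisons addressed how loss of Bcl6 in the liver is reflected in the ileum, in each sex.

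Lysophospholipid acyltransferases put a fatty acid back onto a phospholipid that has lost one. Phospholipases A2 remove fatty acids and these enzymes restore them from acyl-CoA, a cycle named after Lands that sets the saturation of membranes. In the absorptive cells of the small intestine the same step also supplies phospholipid for the surface of chylomicrons, and phosphatidylcholine arriving with bile is absorbed as its lyso form. The family has 2 unrelated structural branches. LPCAT1, LPCAT2, LPCAT4, LPGAT1 and LCLAT1 belong to the AGPAT branch, in which a histidine and an aspartate spaced by 4 residues form the catalytic motif. LPCAT3, MBOAT1, MBOAT2 and MBOAT7 belong to the membrane-bound O-acyltransferases (MBOAT).

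The coding stretches around that motif are shown because they are the part the AGPAT members have in common and show how far apart the genes are in the bases a read can cover. Each run is 48 bases of exon 3 of the transcript, on the + strand of mm10 (GRCm38), from GENCODE transcripts, with the histidine and aspartate codons in capitals. They lie at chr2:112242037-112242084 for Lpcat4, chr8:92869757-92869804 for Lpcat2, chr13:73488996-73489043 for Lpcat1, chr17:73169568-73169615 for Lclat1 and chr1:191749587-191749634 for Lpgat1. Lclat1 had 3 in-frame matches to the spacing, of which the first is shown, and the other genes had 1.
Lpcat4: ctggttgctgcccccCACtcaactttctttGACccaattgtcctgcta
Lpcat2: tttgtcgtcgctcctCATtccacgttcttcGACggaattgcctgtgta
Lpcat1: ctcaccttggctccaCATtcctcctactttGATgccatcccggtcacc
Lclat1: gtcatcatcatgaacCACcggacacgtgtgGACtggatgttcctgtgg
Lpgat1: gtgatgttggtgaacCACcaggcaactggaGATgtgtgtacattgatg

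Lpcat4 shared 30 of these 48 bases with Lpcat2, 22 with Lpcat1, 19 with Lclat1 and 15 with Lpgat1. Along the whole paired GENCODE transcripts no window of 100 bases, the read length, of any of the 9 members occurred in a transcript of another gene. For Lpcat4 this was 0 of 2176 windows. Within these transcripts, reads of one member can therefore not be exact matches to another, and the 9 counts were taken as separate measurements. Matches with mismatches were not searched, nor were counted exon bases outside these transcripts. For Lpgat1 the transcript has 2792 bases and the table counts 7056.

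In the annotation of the deposited table, Lpcat4 (NM_207206) spans 112239841 to 112247111 on the + strand of chromosome 2 in mm10, with 1886 bases of exon. Only Lpcat2 and Lpcat3 overlap another gene of the table. The last 347 bases of Lpcat3 (chromosome 6, 124663104 to 124704716) overlap Emg1 on the opposite strand, and Capns2 lies inside Lpcat2 (chromosome 8, 92855333 to 92919279) on the same strand. The strand setting of the counting was not stated, but the counts behaved as strand-specific, with a female WT mean of 502.6 CPM for Xist and 0.333 CPM for its antisense partner Tsix.

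Lpcat3 was the most abundant member and Lpcat4 came after it. LPCAT3 is the main intestinal enzyme that returns polyunsaturated fatty acids to lysophosphatidylcholine. Per kilobase of exon, the Lpcat3 level was 107.8 ± 6.80 CPM per kb (SD over the 16 libraries). LPCAT4, which acts on lysophosphatidylethanolamine and lysophosphatidylcholine, had a level of 48.7 ± 13.3 CPM per kb. Lpcat3 lay above Lpcat4 in all 16 libraries.

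Mboat1, whose product acylates lysophosphatidylethanolamine and lysophosphatidylserine, followed with 37.6 ± 7.57 CPM per kb. Mboat7, the arachidonate-specific acyltransferase of lysophosphatidylinositol, stood at 23.0 ± 2.05 CPM per kb. Lclat1, which acylates lysocardiolipin and lysophosphatidylinositol, stood at 19.3 ± 1.89 CPM per kb. The order of neighbours was not fixed here: Lpcat4 exceeded Mboat1 in 12 of 16 libraries, and Mboat7 exceeded Lclat1 in 15.

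Lpgat1, named for lysophosphatidylglycerol, had 12.5 ± 1.45 CPM per kb and was below Lclat1 in every library. Lpcat2, the enzyme that also makes platelet-activating factor, had 4.57 ± 0.530 CPM per kb. Lpcat1, known for the dipalmitoyl lecithin of lung surfactant, had 4.33 ± 0.562 CPM per kb. Lpcat2 exceeded Lpcat1 in 10 of 16 libraries, so these neighbours did not differ beyond their spread. Mboat2 was lowest, with 0.551 ± 0.165 CPM per kb and 19 to 87 reads per library. These levels depend on the exon length used: the table counts Lpcat1 over 1590 bases and Lpgat1 over 7056, and their paired GENCODE transcripts have 3675 and 2792 bases.

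**Figure D1:**
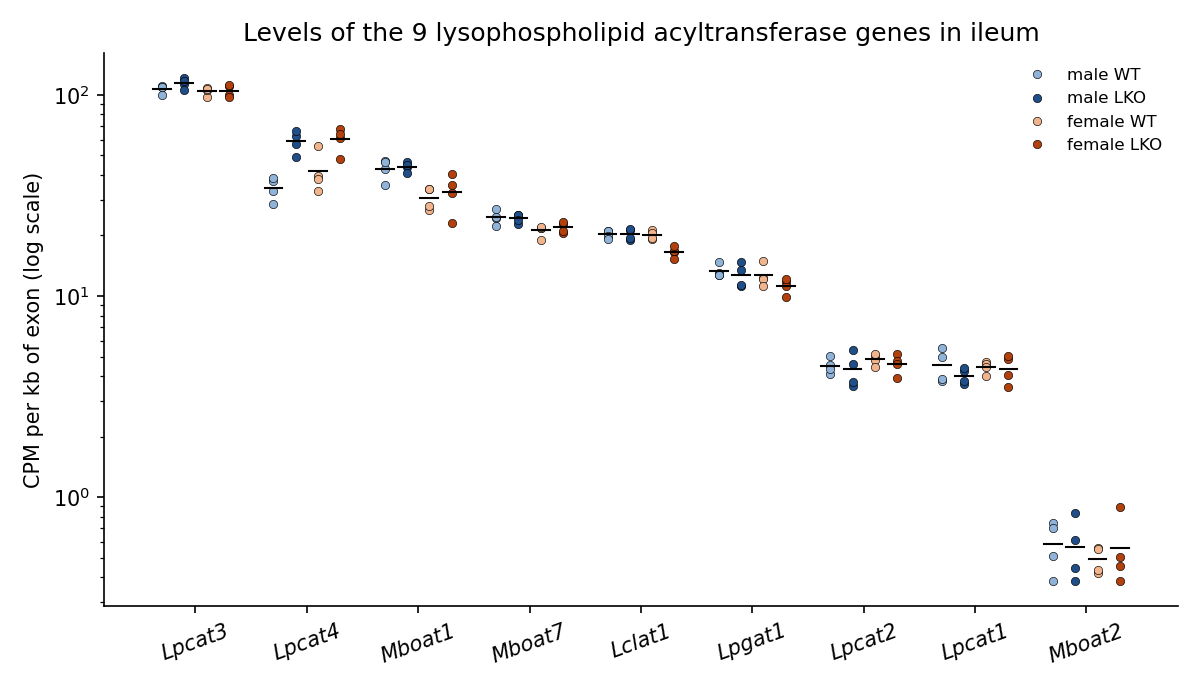
Levels of the 9 genes in CPM per kb of exon (log axis) in the 16 libraries, 1 point per library and a bar at the mean of each group of 4. Lpcat3 lies on top at 97.1 to 121 CPM per kb, Mboat2 at the bottom at 0.382 to 0.898, and Lpcat4 is the gene whose 4 groups are farthest apart.

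In males, Lpcat4 was higher in LKO than in WT in every library, while none of the other 8 members differed by more than the replicate spread. The WT males had Lpcat4 levels of 62.8, 70.0, 72.7 and 53.9 CPM, from replicate 1 to replicate 4. The LKO males had levels of 93.0, 107.3, 118.3 and 124.3 CPM. All 4 LKO libraries lay above all 4 WT libraries. The mean was 64.9 ± 8.43 CPM (SD, n = 4) in WT and 110.7 ± 13.8 CPM in LKO, a log2 fold change of 0.78 (SE 0.10, 95% interval 0.55 to 1.00), or 1.71-fold.

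**Figure D2:**
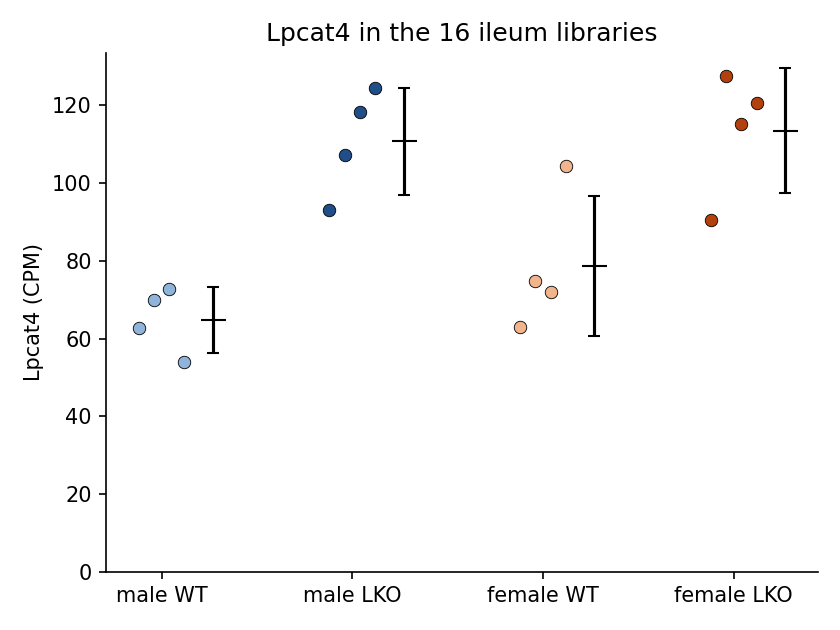
Lpcat4 in CPM in each of the 16 libraries by group, with points in replicate order and the mean ± SD of 4 libraries beside them. In males the 4 LKO points lie between 93.0 and 124.3 CPM, above the 4 WT points, and in females 1 WT point at 104.5 CPM lies above the lowest LKO point at 90.5 CPM.

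These male values are the ones that led to Lpcat4 being chosen, so they are no test of it. The value that chose it was an adjusted p of 0.0106 by edgeR's quasi-likelihood test with Benjamini-Hochberg adjustment, 5th among 15169 genes. The last gene inside the threshold of 0.05 was Mmp7, with 0.0442, and the first outside was Mmp10, with 0.0501. In all, 0.0527% of the genes tested passed, 5.29% had an unadjusted p under 0.05 and 2.87% had groups without overlap, and DESeq2 called 0.33%. That value depended on single libraries: leaving out male WT replicate 1 gave Lpcat4 an edgeR adjusted p of 0.0932, and leaving out male LKO replicate 3 gave 0.0539, with log2 fold changes of 0.76 and 0.74.

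The sample titles carry a running number whose meaning is not stated, and in males it nearly follows the genotype. All 4 WT males have lower numbers than all 4 LKO males. Only the last WT male and the first LKO male have adjoining numbers, and they had 53.9 and 93.0 CPM of Lpcat4. With the number as a covariate the male log2 fold change was 0.59 (SE 0.16) and it no longer passed, so in males genotype and number cannot be told apart.

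Paneth cell markers were higher along with Lpcat4 in male LKO. Paneth cells sit at the bottom of crypts and release antimicrobial proteins. Their summed level was 12668 to 14736 CPM in male WT and 18232 to 22506 CPM in male LKO, with 7 of 7 genes higher in mean and none at 0 in any library. In females the sums overlapped, 16680 to 23608 CPM in WT and 21047 to 23025 CPM in LKO, though 6 of the 7 genes had higher means in LKO. The Pearson correlation of this sum with Lpcat4 over the 16 libraries was 0.61, and 0.02 after the group means were subtracted, both given as a description. The summed markers of ileal enterocytes (Fabp6, Slc10a2, Vil1, Fabp2, Apoa4 and Mep1a), 8853 to 12790 CPM over all libraries, overlapped between the genotypes in both sexes, and their correlation with Lpcat4 was 0.60, and 0.71 within groups. Among these 6 genes, 4 had higher means in male LKO and 3 in female LKO. Fabp6 alone had 2662 to 3617 CPM in male WT and 3817 to 4217 in male LKO, without overlap, and it overlapped in females. Apart from the Paneth cell list, none of the 13 marker lists had sums without overlap between genotypes in either sex. In males, though, all 6 goblet, all 6 B cell, all 5 T cell and all 4 tuft cell markers found had lower means in LKO. The part of these cells in the Lpcat4 values was not tested.

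The other AGPAT members did not pass the test in males. Lpcat1 had a log2 fold change of -0.17 (SE 0.15), from 6.03 to 8.73 CPM in WT and from 5.83 to 6.99 CPM in LKO. Lpcat2 was at -0.06 (SE 0.14) and Lpgat1 at -0.07 (SE 0.090). Lclat1 had 90.0 ± 3.98 CPM in male WT and 90.0 ± 5.84 CPM in male LKO, and the interval of its log2 difference, -0.14 to 0.14, was among the narrowest.

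Nor did the MBOAT members pass in males. Lpcat3 had 267.0 ± 13.0 CPM in WT and 284.2 ± 16.5 CPM in LKO, a log2 fold change of 0.09 (95% interval -0.05 to 0.23). Mboat1 was at 0.04 (SE 0.083), Mboat7 at -0.01 (SE 0.070) and Mboat2 at -0.05 (SE 0.30). The groups of all 8 overlapped, and the lowest edgeR adjusted p among them was 0.999. The median log2 fold change of the 9 members was -0.01, beside -0.00 over all genes tested.

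In females, Lpcat4 had a higher mean in LKO but did not pass the test, and Lclat1 had a lower one in libraries that did not overlap. The WT females had Lpcat4 levels of 63.0, 74.9, 72.0 and 104.5 CPM. The LKO females had 90.5, 127.6, 115.2 and 120.7 CPM. WT replicate 4 lay above LKO replicate 1, and the other 3 libraries of each genotype were separated. The means were 78.6 ± 18.0 CPM and 113.5 ± 16.1 CPM (SD, n = 4), a log2 fold change of 0.53 (SE 0.17, 95% interval 0.16 to 0.91), or 1.45-fold, with a p of 0.0113 and an adjusted p of 0.318 by edgeR's quasi-likelihood test.

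The female libraries are not in the male contrast that chose Lpcat4. With DESeq2 its adjusted p was 0.0409, the lowest of a range up to 0.602 over all alternatives. Without female WT replicate 4 the log2 fold change was 0.70, with an edgeR adjusted p of 0.0943, and over the 8 fits without 1 library each it lay between 0.44 and 0.70. With the title number as a covariate it was 0.37 (adjusted p 0.206, edgeR). The female numbers fall into a run of 3, a run of 4 and a single animal. In the first run the WT females had 63.0 and 74.9 CPM and the LKO female 90.5 CPM. In the other the WT female had 104.5 CPM and the 3 LKO females 115.2 to 127.6 CPM. LKO lay above WT within both runs, but the WT female of the other run lay above the LKO female of the first. With a single LKO female in the first run and a single WT female in the other, this is a description only.

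Lclat1 ranged from 85.5 to 94.0 CPM in WT females and from 67.9 to 78.2 CPM in LKO females. Its 4 LKO values were 73.7, 67.9, 74.2 and 78.2 CPM, and they were the 4 lowest of all 16 libraries. The means were 89.4 ± 4.05 CPM and 73.5 ± 4.26 CPM, a log2 fold change of -0.28 (SE 0.063, 95% interval -0.41 to -0.14). Among all genes tested in females 6.3% had groups without overlap. Lclat1 had a p of 0.000802 and an adjusted p of 0.189 by edgeR, and an adjusted p of 0.0167 with DESeq2, in a range of 0.0167 to 0.485 over all alternatives. It held its size without each library in turn, -0.31 to -0.24, and with the title number as a covariate, -0.27.

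Marker lists of other cells also leaned one way in females, though every list overlapped between the genotypes. The B cell markers had higher means in LKO in 6 of 6, with sums of 18.9 to 55.0 CPM in WT and 24.1 to 290.7 CPM in LKO. Of these, Pax5 was at 0 only in male libraries, and its lowest count was 1 in both female groups. All 5 plasma cell markers (1709 to 2251 CPM in WT, 1491 to 2347 CPM in LKO), all 5 smooth muscle markers (3036 to 4701 and 3150 to 4478 CPM) and the 4 tuft cell markers found (40.9 to 60.9 and 48.5 to 80.2 CPM) also had higher means in LKO. The 6 goblet cell markers had lower ones (19375 to 22303 and 17163 to 19675 CPM), as did the 4 crypt stem cell markers (829 to 916 and 699 to 910 CPM). Their part in the female Lpcat4 and Lclat1 values was not tested.

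The other 7 members had groups that overlapped in females. Lpgat1 had 89.3 ± 11.0 CPM in WT and 79.1 ± 6.65 CPM in LKO, a log2 fold change of -0.17 (95% interval -0.37 to 0.03). Mboat1 was at 0.11 (95% interval -0.27 to 0.49), with LKO values from 65.8 to 115.7 CPM, a wider range than in any other group. Lpcat3 was at 0.01 (95% interval -0.13 to 0.15) and Mboat7 at 0.06 (95% interval -0.09 to 0.21), the narrowest intervals of the MBOAT members. Lpcat1 was at -0.03, Lpcat2 at -0.06 and Mboat2 at 0.18, with SEs of 0.14, 0.10 and 0.28.

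No member passed an edgeR adjusted p of 0.05 in females, where 0.0392% of 15298 genes did. At an unadjusted p under 0.05 there were 2, Lpcat4 higher and Lclat1 lower, against 11.7% of all genes. DESeq2 called the same 2 genes, and 1.23% of all genes with an adjusted p. The median log2 fold change of the members was 0.01, the same as over all genes.

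**Figure D3:**
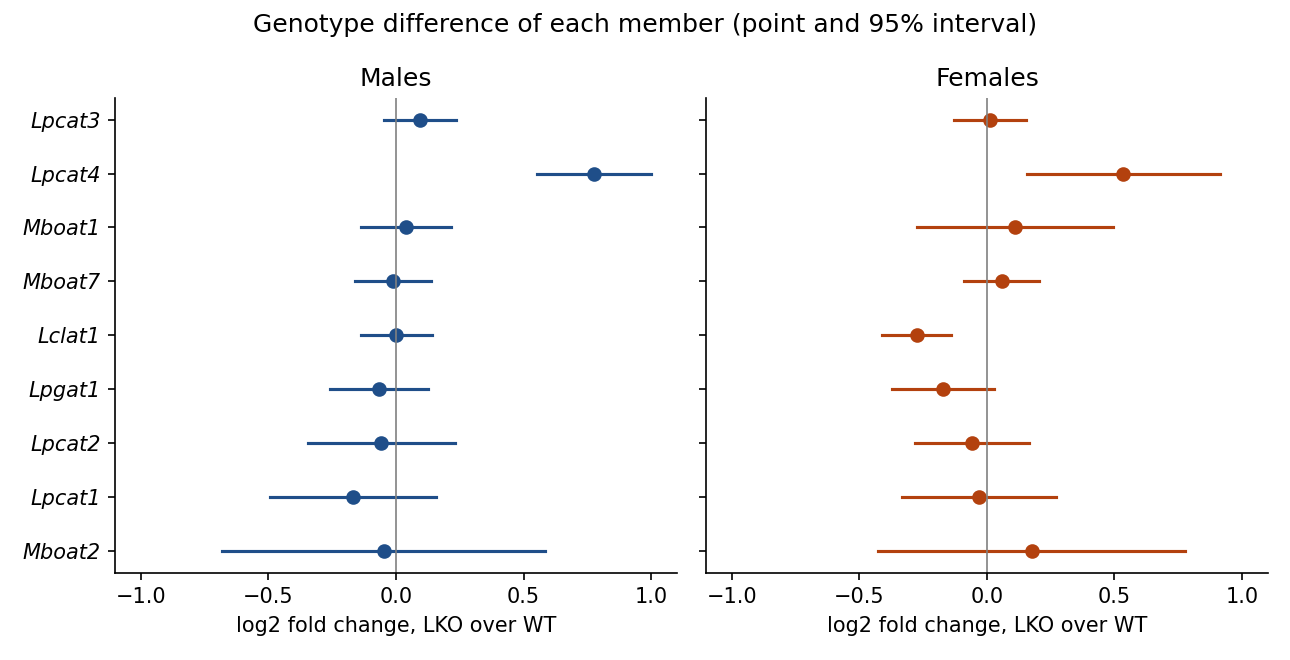
Log2 fold change of LKO over WT for each member in males and in females, with 95% intervals from edgeR, in order of level. In males the interval of Lpcat4 alone, 0.55 to 1.00, lies away from 0, and in females those of Lpcat4, 0.16 to 0.91, and Lclat1, -0.41 to -0.14, do.

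Over both sexes with sex as a covariate, none of the 8 members other than Lpcat4 passed the threshold, where 0.269% of 15598 genes did. Lpcat4 lay past it, but this fit holds the male libraries that chose it, so nothing is read from that. Its values were a log2 fold change of 0.65 (SE 0.11, 95% interval 0.42 to 0.88). Its edgeR adjusted p of 0.0263 rose to between 0.0506 and 0.0707 without any one of 8 libraries (male WT 1 and 2, male LKO 2, female WT 1 and 3, and female LKO 2, 3 and 4). Lclat1 had a log2 fold change of -0.14 (SE 0.052, p 0.0136, adjusted p 0.285 with edgeR). At an unadjusted p under 0.05 Lclat1 was the only one of these 8, beside 11.2% of all genes, and DESeq2 called none of the 8 and 1.77% of all genes. The remaining 7 lay between -0.12 (Lpgat1) and 0.07 (Mboat1).

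The difference between the sexes in the genotype effect was tested in a single fit of all 4 groups. No gene and no member passed with edgeR or with DESeq2 (0% called), and 5.64% of genes had an unadjusted p under 0.05 with edgeR. Lclat1 was the member with such a p, 0.00497 (adjusted 0.845, edgeR), its effect being higher in males by 0.27 on the log2 scale (SE 0.086, 95% interval 0.09 to 0.45). For Lpcat4 the male effect exceeded the female one by 0.24 (95% interval -0.22 to 0.69), and by 0.07 without female WT replicate 4. This is no test, since the male effect is the one that chose the gene.

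As a share of the summed CPM per kb of the 9 members, Lpcat4 made up 13.6 ± 1.49% in male WT and 20.7 ± 2.03% in male LKO. In females it made up 17.2 ± 2.97% in WT and 23.3 ± 2.18% in LKO. The share of Lpcat3 was 42.5 ± 1.58% and 40.3 ± 0.936% in males, and 43.5 ± 1.84% and 40.9 ± 2.97% in females. Lpcat3 thus remained the largest part in every group. The sum itself was 243.5 to 263.3 CPM per kb in male WT and 271.0 to 298.6 in male LKO, with 228.1 to 258.1 in female WT and 239.0 to 271.6 in female LKO.

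Between the sexes, Mboat1 had the higher levels in males in both genotypes, without passing the edgeR threshold. Its WT males had 122.8, 101.8, 134.7 and 132.5 CPM, and its WT females 97.2, 76.5, 80.3 and 97.2 CPM. All WT males lay above all WT females, with means of 123.0 ± 15.0 and 87.8 ± 11.0 CPM and a log2 difference of 0.48 (SE 0.10, 95% interval 0.26 to 0.70). Of all genes tested in WT, 8.16% had sexes without overlap. The edgeR adjusted p was 0.0782 and the DESeq2 one 0.00218, and without male WT replicate 2 the edgeR value was 0.0240 with a log2 difference of 0.57. Over all alternatives the adjusted p ran from 0.00218 to 0.262.

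Among LKO mice, Mboat1 had 126.2, 132.7, 127.7 and 117.2 CPM in males and 93.7, 102.2, 65.8 and 115.7 CPM in females. The sexes did not overlap here either, though female replicate 4 was close to the lowest male, and 12.9% of all genes had LKO sexes without overlap. The log2 difference was 0.41 (SE 0.15, 95% interval 0.08 to 0.74), with an adjusted p of 0.153 by edgeR and 0.0463 by DESeq2, and up to 0.336 over all alternatives.

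Mboat7 showed smaller sex differences of the same sign. In WT it had 64.1 to 77.6 CPM in males and 54.8 to 63.3 CPM in females, without overlap, a log2 difference of 0.22 (SE 0.073, edgeR adjusted p 0.228). In LKO it had 65.8 to 72.8 CPM in males and 59.3 to 67.2 CPM in females, with overlap, a log2 difference of 0.15 (SE 0.064, edgeR adjusted p 0.194). Neither difference passed the threshold, nor did DESeq2 call Mboat7 in either genotype.

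Lclat1 differed between the sexes in LKO by 0.29 on the log2 scale, higher in males (SE 0.066, 95% interval 0.14 to 0.43), and the sexes did not overlap. Its edgeR adjusted p was 0.0708 and its DESeq2 one 0.00736, in a range of 0.00736 to 0.216 over all alternatives. Without female LKO replicate 4 the edgeR value was 0.0350, in a fit where 665 genes passed, against 15 with all libraries. In WT the difference was 0.01 (95% interval -0.12 to 0.14).

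**Figure D4:**
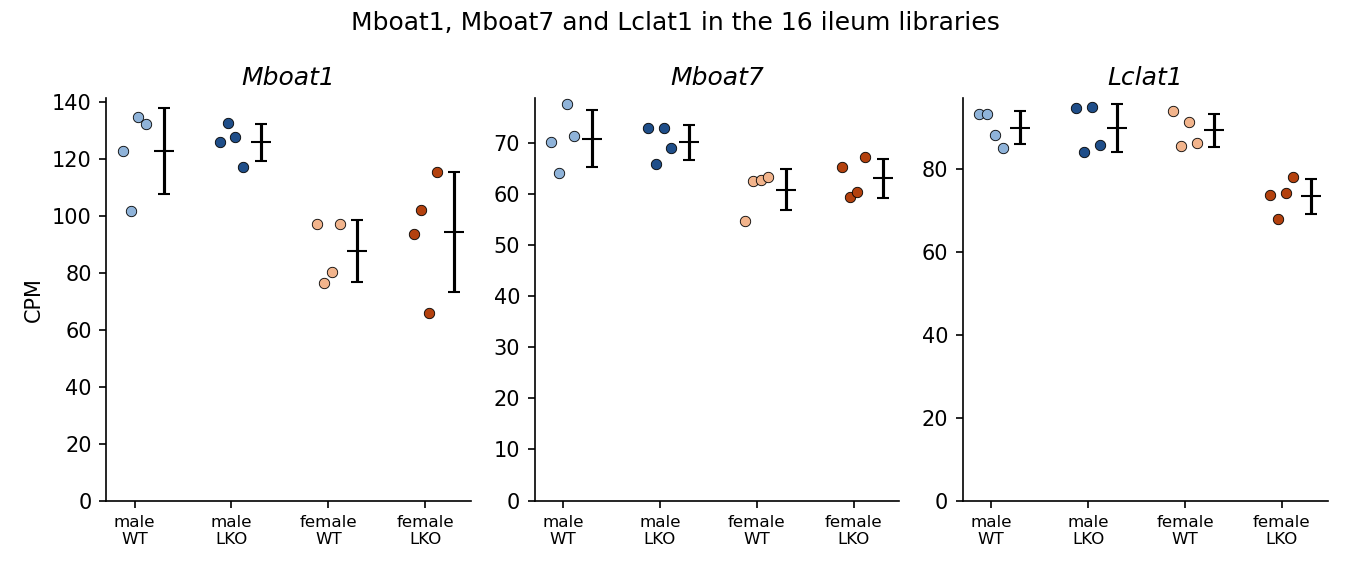
Mboat1, Mboat7 and Lclat1 in CPM in the 16 libraries by group, with points in replicate order and the mean ± SD of 4 libraries beside them. Mboat1 has 101.8 to 134.7 CPM in male and 65.8 to 115.7 in female mice, and for Lclat1 the 4 female LKO points lie below all others, at 67.9 to 78.2 CPM.

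For Lpcat4 the sexes overlapped in both genotypes, with log2 differences of males to females of -0.28 (95% interval -0.65 to 0.09) in WT and -0.04 (95% interval -0.29 to 0.21) in LKO. These are given without a test because the male libraries chose the gene. The other 5 members also overlapped in both genotypes. Lpcat3 was at 0.04 in WT and 0.12 in LKO, Lpgat1 at 0.07 and 0.18, and Lpcat2 at -0.10 and -0.10, none past the threshold. Lpcat1 was at 0.03 and -0.11, and Mboat2 at 0.26 and 0.03, with SEs up to 0.32.

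With edgeR no member passed in either sex comparison, where 0.25% of 15229 genes did in WT and 0.0984% of 15250 in LKO. At an unadjusted p under 0.05, Mboat1 and Mboat7 were higher in males in WT, and Mboat1, Mboat7 and Lclat1 in LKO, beside 13.9% and 22.6% of all genes. DESeq2 called 1 member in WT and 2 in LKO, with 1.7% and 6.91% of all genes. Median log2 differences of the members were 0.04 in WT and 0.12 in LKO, and those of all genes -0.01 and -0.00.

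The genes whose levels were most like that of Lpcat4 over the 16 libraries were ranked among 14423 genes with a mean of at least 1 CPM, by Pearson's r of log2 CPM. Rasl12, a Ras-like GTPase gene, came first (r = 0.92). Slc51b, one subunit of the basolateral bile acid exporter OST, came next (r = 0.91). Abhd6, a monoacylglycerol lipase that also cleaves lysophospholipids, had r = 0.88, Sqstm1, an autophagy receptor, 0.87, and Bst1, a cell-surface enzyme acting on NAD, 0.86. The points share their libraries and fall into the 4 groups, so part of each r is the group means themselves.

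Slc51b had means of 247.4 CPM in male WT, 308.4 in male LKO, 246.8 in female WT and 307.4 in female LKO. Rasl12 had 76.1, 98.1, 79.2 and 92.8 CPM in the same order. Both genes, like Lpcat4, had their highest WT level in female WT replicate 4, where Rasl12 was at 94.8 CPM. After the group means were subtracted, other genes ranked highest, among them Slc25a10, a mitochondrial dicarboxylate carrier (r = 0.91), Pkp3, a desmosomal plakophilin (0.90), 1810055G02Rik (0.90) and Slc51a, the other OST subunit (0.87).

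**Figure D5:**
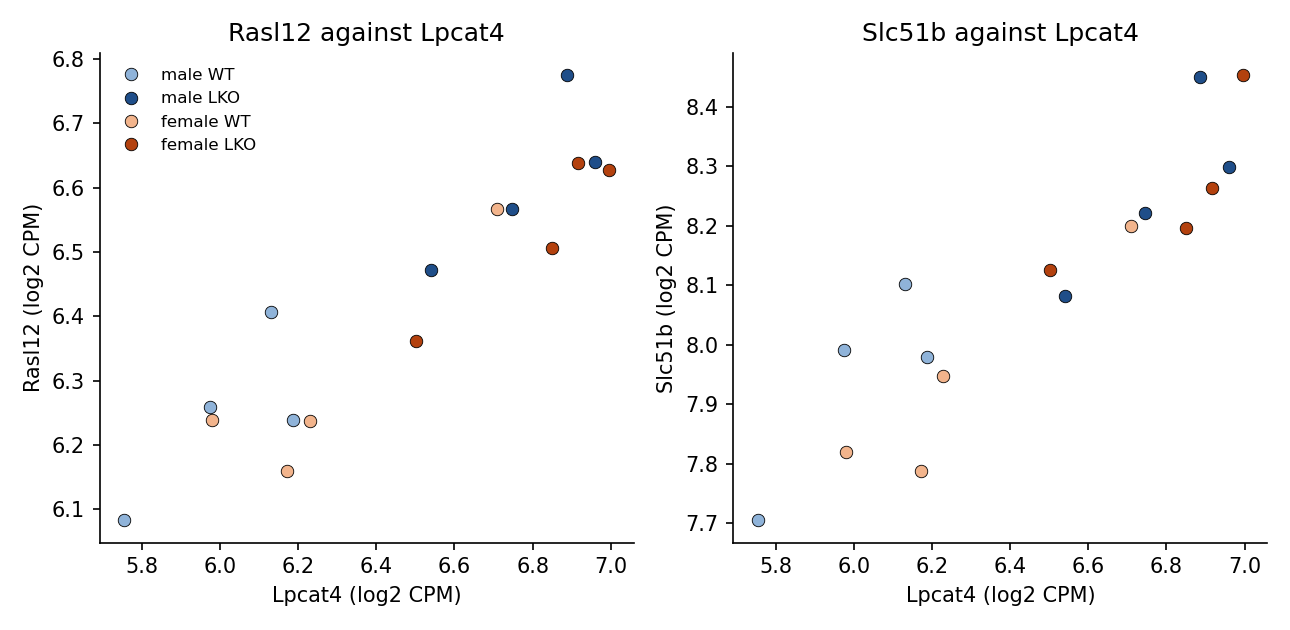
Rasl12 and Slc51b against Lpcat4, each in log2 CPM, 1 point per library coloured by group. The points of both panels rise together (r = 0.92 and 0.91), WT mostly at lower left and LKO at upper right, with 1 female WT library among the LKO ones.

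None of the other members was close to this pattern. Lpcat3 had an r with Lpcat4 of 0.39, and 0.54 after the group means were subtracted. Lclat1 had -0.50 and Lpgat1 -0.45, which fell in size to -0.25 and -0.20 within groups. The remaining 5 lay between -0.23 and 0.08.

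Around these enzymes, 85 other genes of phospholipid synthesis and turnover were listed in 11 roles. All 85 were in the table, and 1 of them, Lpcat2b, had 0 counts in all libraries. With edgeR none of 76 tested passed in males (6 higher and 4 lower at an unadjusted p under 0.05, 3 called by DESeq2), where 5.29% of all genes had such a p and DESeq2 called 0.33%. None of 76 passed in females either (6 higher and 5 lower, 1 called by DESeq2), beside 11.7% and 1.23% of all genes. The median log2 fold changes, -0.01 in males and 0.02 in females, were close to those of all genes, -0.00 and 0.01.

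Over both sexes 2 of 77 passed, 1 in each direction, beside 0.269% of all genes. Agpat2, which turns lysophosphatidic acid into phosphatidic acid in new phospholipid synthesis, was higher in LKO. It had 239.4 to 266.2 CPM in male WT and 293.5 to 315.5 in male LKO, and 195.4 to 285.6 in female WT and 270.2 to 330.9 in female LKO. The genotypes were apart in males and overlapped in females through WT replicate 4, at 285.6 CPM, the library in which Lpcat4 was also highest among WT. The log2 fold change of Agpat2 was 0.30 (SE 0.062, edgeR adjusted p 0.0474).

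Pla2g3, a secreted phospholipase A2 that releases lysophospholipids, was lower in LKO. It had 9.68, 8.31, 9.92 and 7.01 CPM in male WT and 4.61, 7.79, 5.17 and 5.76 CPM in male LKO. In females it had 10.9, 10.1, 8.06 and 8.52 CPM in WT and 6.14, 4.70, 3.53 and 5.03 CPM in LKO. The female groups were apart and the male ones overlapped through 1 LKO library. The log2 fold change was -0.76 over both sexes (SE 0.13, edgeR adjusted p 0.0191), -0.58 in males and -0.92 in females, the last 2 not past the threshold (adjusted p 0.524 and 0.0983). Agpat2 or Pla2g3 or both lost the call in 13 of the 16 fits without 1 library, and with the title number as a covariate no gene of the list was called.

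In each role the gene with the highest level per length was, in CPM per kb over 16 libraries, Acsl5 among the acyl-CoA synthetases (221 ± 20.5), Agpat2 among the lysophosphatidic acid acyltransferases (172 ± 23.5) and Pcyt2 in choline and ethanolamine phospholipid synthesis (95.5 ± 6.63). Cds1 led serine, inositol and cardiolipin phospholipid synthesis (88.6 ± 6.17), Pla2g2a the phospholipases A2 (73.5 ± 13.3) and Lypla2 the lysophospholipases (65.5 ± 5.18). Levels were lower for Pafah1b3 of platelet-activating factor breakdown (40.5 ± 2.69), the glycerol-3-phosphate acyltransferase Gpat3 (34.4 ± 2.71), Lpin2 of the lipins (31.9 ± 4.67), Taz, the cardiolipin transacylase tafazzin (31.5 ± 1.23), and the receptor Lpar1 (16.7 ± 1.48). Lpcat3, at 107.8, was thus exceeded by Acsl5 and Agpat2 among these leading genes, and Lpcat4, at 48.7, lay between Lypla2 and Pafah1b3. Pla2g2a had 44.5 to 50.7 CPM in male WT and 57.5 to 77.3 in male LKO, without overlap, a log2 fold change of 0.45 (SE 0.090) with an edgeR adjusted p of 0.0923. The Paneth cell markers were also higher in these male LKO libraries, and their part in the Pla2g2a values was not tested. All these levels are of RNA, and whether a working enzyme is made from it in these mice was not examined.

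Between the sexes none of 76 genes of the list passed with edgeR in WT (8 higher in males and 3 lower at an unadjusted p under 0.05) or in LKO (14 and 10). DESeq2 called 3 and 9. Over all genes the shares at an unadjusted p under 0.05 were 13.9% and 22.6%, and those called by DESeq2 1.7% and 6.91%. For the sex difference of the genotype effect none of 77 passed with either tool, with 1 higher and 2 lower at an unadjusted p under 0.05 by edgeR, beside 5.64% of all genes.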

How the data were processed

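Terminal ileum of 16 mice was sequenced by the authors as stranded mRNA libraries (100 bases, single-end). The authors aligned reads to mm10 with STAR 2.5.2 (reads with 1 mapping position, up to 4 mismatches) and counted exon reads per gene with HOMER 4.10 without adjustment, so the deposited values are raw counts. The strand option and annotation version are not given in the sources used here. The authors tested with DESeq2.

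Groups came from the sample titles. In R 4.3.3, edgeR 4.0.16 (TMM, filterByExpr by group, robust quasi-likelihood F-test) was fitted over all genes on the libraries compared (all 16 for the interaction and for both sexes), with Benjamini-Hochberg adjustment and a threshold of 0.05. DESeq2 1.42.0 was an alternative. CPM are TMM-scaled and log2 CPM use a prior count of 2. Code was tested on simulated data. All 9 members were named, of the pathway list those past the threshold and the highest per role, and the 5 genes most like Lpcat4 over all libraries and within groups, of which 1 is not reported here. The members and lists were chosen with earlier results of these data known. A count of 0 allows up to 3 counts, 0.0485 to 0.190 CPM by library, for counting error only. Protein sequences and the Lpcat4 promoter are not analysed here.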

Additional observations from a re-analysis of the deposited data

Results flagged for a closer look

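In 3 of the 36 sets of 4 libraries (9 genes in 4 groups), 1 library stood farther from the others than Dixon's 95% critical value allows (gap to the nearest library over the group's range); chance flags about 1 in 20 such sets. Lpgat1 in male WT replicate 4 was at 104.2 CPM, with the nearest library at 92.0 CPM (0.861). Lpcat3 in the same library was at 247.6 CPM, with the nearest at 271.7 CPM (0.879). Mboat7 in female WT replicate 1 was at 54.8 CPM, with the nearest at 62.5 CPM (0.908). Male WT replicate 4 also had the lowest Lpcat4 level of the 16 libraries, 53.9 CPM, and without it the male log2 fold change of Lpcat4 was 0.70 and that of Lpcat3 0.06.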

How the results depend on the processing

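The alternatives were DESeq2, other scaling (RLE, upper quartile), a looser filter (none) and a stricter one (10 counts in each library), a fit without robust, the other quasi-likelihood method, the replicate number as a block, the title number as a covariate, female LKO replicate 1 thinned to the median depth, and each library left out. In males, DESeq2 called 3 pathway genes and the fit without a filter 1. In females DESeq2 called 2 members and 1 pathway gene and put Lpcat4 (0.53) past the threshold, and no filter and the replicate block each called 1 pathway gene. Over both sexes DESeq2 called 4 pathway genes, and the fit without robust and the replicate block 1 each. Between WT sexes DESeq2 called 1 member and 3 pathway genes, and the block 1 member (Mboat1, 0.48, edgeR adjusted p 0.0330). Between LKO sexes DESeq2 called 2 members and 9 pathway genes, and no filter 1 pathway gene. With the title number, members called fell to 0 in males (Lpcat4 0.59) and to 0 over both sexes (Lpcat4 0.42), with 0 pathway genes. The cause of these changes was not tested.

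Replicate numbers are shared between groups. Same-numbered libraries correlated at -0.104 to 0.256, and over 0.1 in 2 of 16 pairs. Both of these were among the 4 pairs of LKO and WT females, where r ran from -0.063 to 0.256. So few pairs cannot decide whether the females were paired, and the block is given here alone. With it Lpcat4 in females was at 0.55, with an edgeR adjusted p of 0.0560 against 0.318 without it, and the block left its call as it was. Mboat1 between WT sexes was the only member whose call it changed. It called 16 genes in males, 15 in females and 16 over both sexes, against 8, 6 and 42 without it.

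Over all settings other than a library left out, the number of genes called ranged from 3 (title number) to 59 (DESeq2) in males and from 4 to 156 in females. It ranged from 2 to 222 over both sexes, 12 to 240 between WT sexes and 1 to 1039 between LKO sexes. With 1 library left out it was 5 to 29 in males (8 with all), 0 to 4 in females (6), 5 (without male WT replicate 1) to 102 (without male WT replicate 4) over both sexes (42), 9 (without female WT replicate 2) to 64 (without female WT replicate 4) between WT sexes (38) and 7 (without female LKO replicate 1) to 665 (without female LKO replicate 4) between LKO sexes (15), and the shares of genes called move with it.

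With 1 library left out, members called were 0 to 1 in males (Lpcat4 0.70 to 0.85), 0 to 1 over both sexes (0.60 to 0.74), 0 to 1 between WT sexes and 0 to 1 between LKO sexes. Pathway genes called were 0 to 2 over both sexes, 0 to 1 between WT sexes and 0 to 6 between LKO sexes, where Lpcat4 went from -0.14 to 0.039, above 0 without male LKO replicate 1 or female LKO replicate 2.

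The sign of small log2 differences turned, none of them past the threshold. In males Lclat1 was -0.0077 with upper-quartile scaling, -0.0029 without a filter and -0.0029 with 10 counts, and the title number gave Lpgat1 0.037 and Mboat7 0.022. With that number Lpcat3 in females was -0.014, Mboat2 over both sexes -0.0042 and between LKO sexes -0.22, and Lpcat1 between WT sexes -0.022. Between LKO sexes Mboat2 was -0.016 with upper-quartile scaling and -0.015 when thinned, and Lclat1 between WT sexes was -0.0064 with upper-quartile scaling. For Lpcat2 the sex difference of the genotype effect was 0.00094 with RLE, 0.0040 without a filter, 0.0018 with the replicate block and 0.036 when thinned. With 1 library left out, male ranges were -0.18 to 0.026 for Lpcat2, -0.025 to 0.031 for Lclat1, -0.041 to 0.082 for Mboat1, -0.29 to 0.11 for Mboat2 and -0.054 to 0.033 for Mboat7. Female ranges were -0.11 to 0.067 for Lpcat1, -0.12 to 0.0073 for Lpcat2, -0.021 to 0.047 for Lpcat3, -0.0036 to 0.25 for Mboat1 and -0.098 to 0.30 for Mboat2. Those of the sex difference of the genotype effect were -0.13 to 0.078 for Lpcat2, -0.21 to 0.033 for Mboat1 and -0.47 to 0.046 for Mboat2. Over both sexes they were -0.074 to 0.14 for Mboat2 and -0.00072 to 0.045 for Mboat7. Between WT sexes they were -0.082 to 0.11 for Lpcat1 and -0.012 to 0.035 for Lclat1, and between LKO sexes -0.21 to 0.31 for Mboat2. Depth limits Mboat2 most, at 19 to 87 reads per library.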
